A study of Homo sapiens with 2 samples.

Results

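This account covers 10 genes known from mast cells, basophils and eosinophils, the granule-bearing leukocytes of allergy and of the response to parasites: SLC18A2, PRG2, HDC, IL1RL1, RAB27B, SELPLG, HPGD, ENPP3, KIT and ALOX5. They were chosen by the measured difference between these arrays and by their names, so the differences are given as a description and support nothing about the group. All 25 probe sets annotated to these genes were read, each annotated to 1 gene only. All 10 genes were measured, of 12541 measured genes and of 19775 with a probe set of their own. Expression was read on 2 Affymetrix arrays, 1 from K562 cells carrying the empty retroviral vector pMSCV and 1 from K562 cells carrying a retrovirus that overexpresses PML4, an isoform of the scaffold protein of PML nuclear bodies. K562 is a human leukaemia line that carries the BCR-ABL fusion. Both cultures were grown in medium with fetal bovine serum and selected for 3 weeks in G418, per the labels, and whether the selected cells were a pool or a clone is not given in the sources used here. With 1 array per group no value has a replicate error, no test was made, and each difference is that between these 2 arrays.

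Mast cells and basophils make histamine from histidine, load it into granules with a vesicular amine transporter, and release it when a receptor for immunoglobulin E is cross-linked. Eosinophils fill their granules with cationic proteins. Mast cells depend on the receptor KIT for growth, respond to interleukin 33 through the receptor encoded by IL1RL1, and make leukotrienes and prostaglandins on activation. K562 cells express genes of the erythroid and megakaryocyte lineages, which share GATA transcription factors with mast cells, basophils and eosinophils.

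Values are linear signal intensities from MAS5, which summarises the probes of a probe set into 1 signal. The limit of background, called the floor, was set at 72.4, the signal that divides all human probe sets of the pair of arrays into equal parts. A probe set counted as measured if at least 1 array exceeded the floor, and lower signals were set to the floor before log2 was taken. Where 1 of the signals was set to the floor, the difference is a lower bound, written "at least". A gene took its measured probe set of highest mean log2 signal, and was called when its arrays differed by at least 2-fold. Of all measured genes, 154 (1.23%) were called higher on the PML4 array and 402 (3.21%) lower. After quantile normalization these counts were 196 and 281, and after loess centring 190 and 286.

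Of the 10 genes, 7 were called higher on the PML4 array, 1 (ALOX5) was called lower, and 2 (ENPP3 and KIT) were not called. Because the genes were chosen with these values known, nothing is read from that count beside 1.23% and 3.21%. Their median log2 difference was 1.81, and that of all measured genes was -0.049. SLC18A2 was at rank 1 of all measured genes by a lower bound that the floor sets, SELPLG at rank 5, PRG2 rank 8, RAB27B rank 9, HPGD rank 16, IL1RL1 rank 21 and HDC rank 29. ALOX5 was at rank 47 from the lowest. KIT and ENPP3, at ranks 553 and 1016 from the highest, lay within 1.58-fold and 1.42-fold. In bulk RNA, more cells with a transcript and more transcript per cell cannot be told apart.

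**Figure D1:**
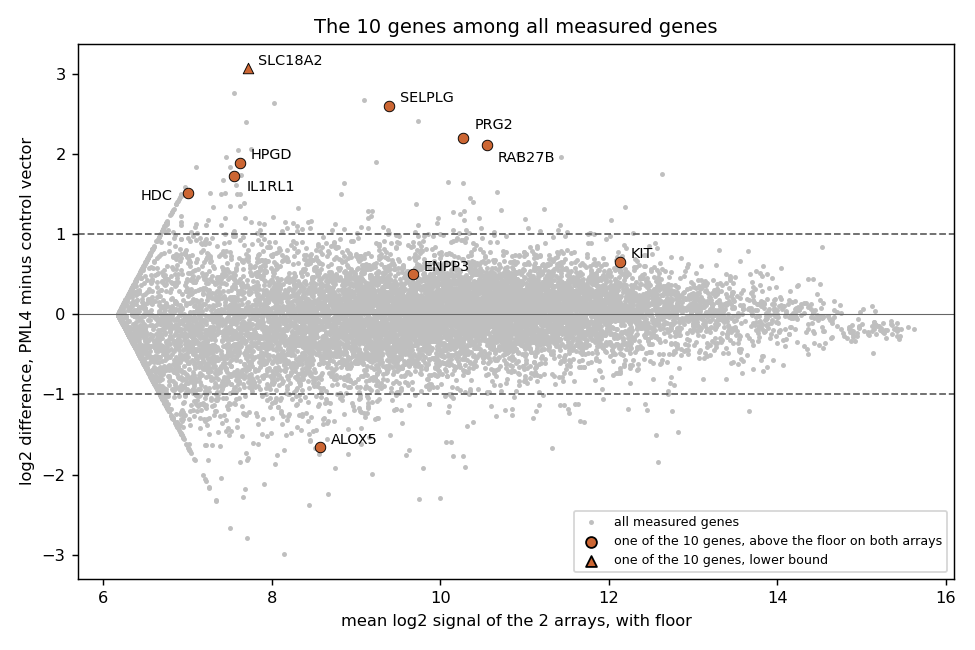
Log2 difference, PML4 minus control vector, against the mean log2 signal of the 2 arrays for all 12541 measured genes (grey) and the 10 genes (orange; a triangle marks a lower bound, dashed lines mark 2-fold). SLC18A2 is the topmost point, 6 further genes lie above the upper line, KIT and ENPP3 lie inside, and ALOX5 lies below the lower line.

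The arrays were close in RNA quality controls, and the targeted gene was read by probe sets that disagreed. For GAPDH the ratio of 3' to 5' signal was 1.55 with the empty vector and 1.53 with PML4, and that of ACTB was 2.94 and 2.80. Of 9 measured probe sets of PML, 5 were higher and 4 lower on the PML4 array, from 7.12-fold higher to 5.92-fold lower. The probe set standing for PML was at 216.3 with the empty vector and 1386.8 with PML4. K562 markers were present: HBE1, epsilon-globin, was at 18103.9 and 24540.1. All 6 genes of the K562 marker list with a probe set of their own (HBZ, HBE1, GATA1, TAL1, LMO2 and KLF1) were above the floor on both arrays. GATA1, TAL1 and LMO2 are also in the list of transcription factors of the mast cell, basophil and eosinophil lineages.

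Dim genes were called more often than bright ones, so the shares called are given by class of mean log2 signal. The 10 genes were chosen by their difference, so these shares do not test them. SLC18A2 was placed with the floor standing for its control signal. Among the 3135 dimmest measured genes, which include HDC, IL1RL1 and HPGD, 2.26% were called higher and 7.24% lower. Among the next 3135, with SLC18A2, SELPLG and ALOX5, 1.28% were called higher and 3.99% lower. The third such class, with PRG2, RAB27B and ENPP3, held 0.861% higher and 0.893% lower, and the brightest 3136 genes, with KIT, held 0.51% and 0.702%. PRG2 and RAB27B are thus the called genes of this group with the brightest signals.

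The 25 probe sets divide by their distance from background. Both arrays were above the floor for 10 probe sets, 1 array only for 10, and neither for 5. Of the 20 measured probe sets, 18 had a higher signal with PML4, 12 of them by at least 2-fold, and the 2 lower ones were both of ALOX5. Of the 18, 9 were above the floor with PML4 only, so that being measured fixed their direction. Among all measured probe sets with 1 gene, 1.33% were at least 2-fold higher and 3.05% at least 2-fold lower. Of the bounds, 6 reached at least 2-fold in spite of the floor. PRG2, HDC and KIT were each read by 1 probe set, so agreement between probe sets could not be checked for them.

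**Figure D2:**
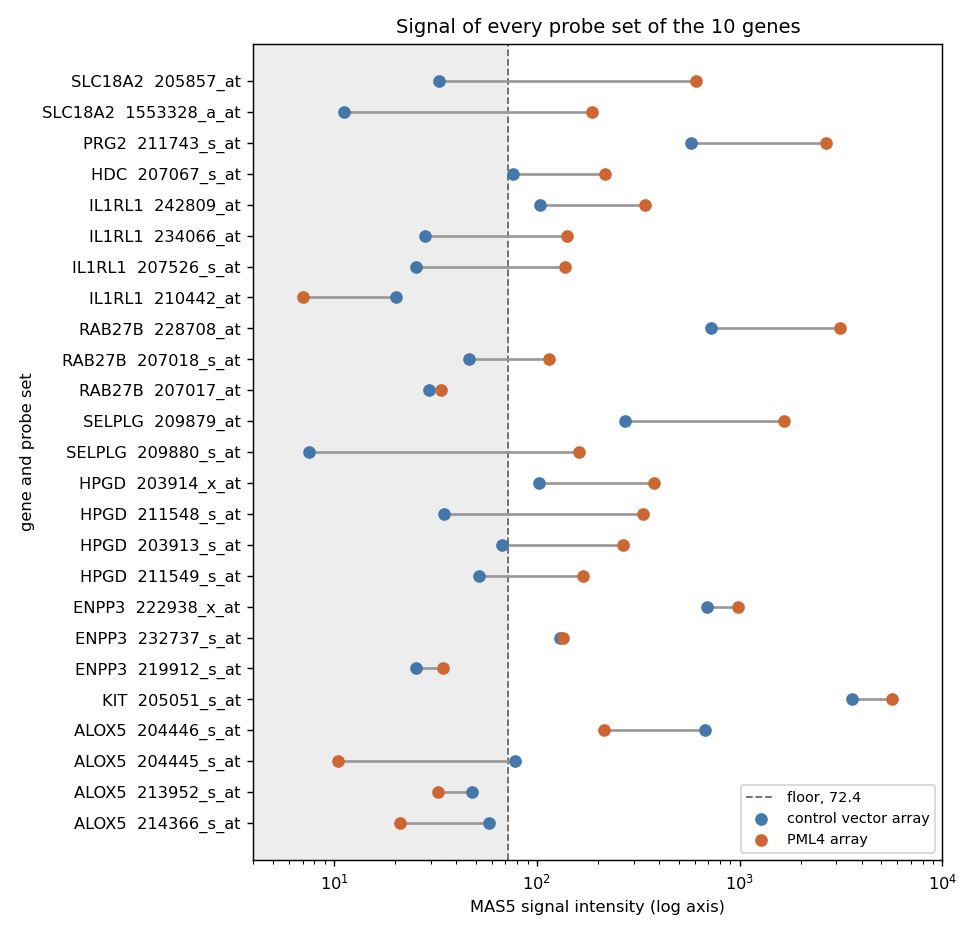
MAS5 signal (log axis) of each of the 25 probe sets on the control vector array (blue) and the PML4 array (orange), joined by a line; the dashed line is the floor of 72.4 and the shaded area lies under it. Of the 25, 20 have the PML4 point on the right, and those with the PML4 point on the left are the 4 of ALOX5 and 1 of IL1RL1 whose points both lie under the floor.

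SLC18A2 (Entrez 6571) encodes the vesicular monoamine transporter that packs histamine, serotonin and other amines into granules. Its probe set 205857_at had a signal of 32.9 with the empty vector, under the floor, and 608.6 with PML4, which is 8.41 times the floor. The difference is a bound, at least 8.41-fold higher. The other probe set, 1553328_a_at, was at 11.2 and 187.9, at least 2.60-fold higher. Both probe sets were thus background on the control array and above it on the PML4 array, so the gene counts as measured only through the array on which it was high. The size of the difference was set by the floor: it was 4.21 on the log2 scale with a floor at the 25th percentile of signal and 0.39 with one at the 75th. SLC18A1, the related transporter of neuroendocrine cells, was under the floor on both arrays, at 5.7 and 25.4.

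HDC (Entrez 3067) encodes histidine decarboxylase, the enzyme that makes histamine. Its single probe set 207067_s_at was at 76.0 with the empty vector and 217.0 with PML4, a 2.86-fold higher signal. The control signal lay just above the floor, at 1.05 times it, so that side of the difference was close to background. With a pseudocount of 32 in place of the floor the log2 difference was 1.21, against 1.51.

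Of the 16 genes of histamine and monoamine handling, 5 were measured, 2 of them SLC18A2 and HDC. The other 3 held 1 call: HNMT, the methyltransferase that inactivates histamine inside cells, was at 582.9 with the empty vector and 207.4 with PML4, a 2.81-fold lower signal. Its second measured probe set was at 156.1 and 80.1. MAOA, a monoamine oxidase, was at 189.1 and 272.3. The median log2 difference of the 3 genes other than SLC18A2 and HDC was -0.91.

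To show sequence context, windows from 250 bases before to 50 bases after the start site were taken from RefSeq (GRCh38.p14). They cover the 7 of the 10 genes in the table used, which gave 10 windows. ENPP3 and KIT, which were not called, are among these 7. PRG2, SELPLG and ALOX5 have no window here. The windows were searched on both strands for the GATA motif spelled AGATAA, its variant AGATAG, the form TGATAA or its variant TGATAG, which is the site read by GATA1 and GATA2. A match was present in 2 of the 10 windows and in 8769 of all 35116 windows of the same length. The 4 printed below, each 5′ to 3′ on the gene's strand with matches in capitals, contrast the 2 windows with a match (IL1RL1 and RAB27B) with those of the amine transporter and the histamine enzyme. SLC18A2 lies at chr10:117240864-117241163 on the plus strand, HDC at chr15:50265677-50265976 on the minus strand, IL1RL1 at chr2:102311313-102311612 and RAB27B at chr18:54717607-54717906, both on the plus strand.
SLC18A2: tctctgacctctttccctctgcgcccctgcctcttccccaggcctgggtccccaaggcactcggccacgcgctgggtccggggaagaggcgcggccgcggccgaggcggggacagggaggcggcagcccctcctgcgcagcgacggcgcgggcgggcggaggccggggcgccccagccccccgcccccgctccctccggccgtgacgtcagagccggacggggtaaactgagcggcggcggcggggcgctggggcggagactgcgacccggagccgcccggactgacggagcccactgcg
HDC: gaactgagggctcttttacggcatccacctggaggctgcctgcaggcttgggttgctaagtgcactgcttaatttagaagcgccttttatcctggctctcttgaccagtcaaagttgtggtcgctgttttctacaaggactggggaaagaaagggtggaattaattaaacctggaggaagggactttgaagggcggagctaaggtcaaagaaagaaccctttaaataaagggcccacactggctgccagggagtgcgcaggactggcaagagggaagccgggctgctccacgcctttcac
IL1RL1: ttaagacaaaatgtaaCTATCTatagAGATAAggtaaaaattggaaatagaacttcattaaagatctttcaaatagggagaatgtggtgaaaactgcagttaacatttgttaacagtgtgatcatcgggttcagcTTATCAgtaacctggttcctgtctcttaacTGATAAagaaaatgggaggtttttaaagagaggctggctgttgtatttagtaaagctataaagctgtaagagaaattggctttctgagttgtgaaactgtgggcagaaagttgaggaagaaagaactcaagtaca
RAB27B: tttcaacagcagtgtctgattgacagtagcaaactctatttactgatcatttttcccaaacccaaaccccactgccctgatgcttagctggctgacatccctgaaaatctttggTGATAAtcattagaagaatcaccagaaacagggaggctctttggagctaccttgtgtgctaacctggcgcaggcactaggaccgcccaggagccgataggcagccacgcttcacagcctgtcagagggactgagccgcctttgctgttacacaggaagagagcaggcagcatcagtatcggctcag
The IL1RL1 window holds 4 matches, which do not overlap and begin 234, 224, 115 and 85 bases before the start site. Its second window held none. The RAB27B window holds 1, beginning 136 bases before the start site, and the second RAB27B window held none. Base composition differed widely: 78.7% of the bases in the SLC18A2 window and 52.3% in the HDC window were G or C. In the printed windows with a match it was 35% for IL1RL1 and 51% for RAB27B. The median over all windows was 58.7%. A match is a run of letters and was not tested as a site.

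PRG2 (Entrez 5553) encodes the major basic protein, the cationic protein that forms the core of the eosinophil granule. Its single probe set 211743_s_at was at 576.4 with the empty vector and 2660.4 with PML4, a 4.62-fold higher signal. Both signals were far from background, at 7.96 and 36.7 times the floor. The log2 difference stayed between 2.15 and 2.22 under other floors and scalings, and with 1 probe set the choice of probe set could not move it.

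Other granule protein genes did not share this size of difference. Of 16 genes of that list, 7 were measured, PRG2 was the 1 call, and the median log2 difference of the other 6 was -0.0030. The middle values, TPSB2 (73.5 and 7.3) among them, were bounds that the floor held near 0. This median therefore does not show a lack of difference. SRGN, the proteoglycan serglycin that holds granule contents, was at 11143.3 and 8673.7. MS4A3, a membrane protein of basophil and myeloid precursors, was at 3418.3 and 2000.3 in the probe set that stands for it. Its other measured probe set was at 1303.2 and 620.3, a log2 difference of -1.07. The genes of mast cell proteases TPSAB1, CPA3 and CMA1, and of PRG3, RNASE2 and CLC from eosinophils, were under the floor on both arrays. EPX, eosinophil peroxidase, was at 95.4 and 187.8, a 1.97-fold higher signal near background.

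KIT (Entrez 3815), the receptor tyrosine kinase for stem cell factor, was the brightest of the 10 probe sets that stand for these genes. Its single probe set 205051_s_at was at 3569.1 with the empty vector and 5622.0 with PML4. The 1.58-fold higher signal was under the size of a call, and its log2 difference lay between 0.61 and 0.67 under the alternatives. That was the narrowest range of the 10 genes, though KIT too has 1 probe set only.

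IL1RL1 (Entrez 9173) encodes ST2, the receptor for interleukin 33, of which mast cells also make a soluble form. The probe set 242809_at was at 103.1 with the empty vector and 340.1 with PML4, a 3.30-fold higher signal, with the control side at 1.42 times the floor. The probe set 234066_at was at 28.1 and 141.2, and 207526_s_at at 25.4 and 138.2. Both are bounds, at least 1.95-fold and at least 1.91-fold higher. The fourth, 210442_at, was at 20.1 and 7.0, under the floor on both arrays, so it gives no fold. The 3 measured probe sets were all higher on the PML4 array, but for 234066_at and 207526_s_at being measured fixed the direction. Which transcript form each one reads was not used here.

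Among 24 surface receptor genes of these cells, 13 were measured, 2 were called higher and none lower. Besides IL1RL1 the call was FCER1G, the signalling chain shared by Fc receptors, at 63.3 and 171.5, a bound of at least 2.37-fold. FCER1A, the chain that binds immunoglobulin E, was under the floor on both arrays. CD63, a granule membrane protein used to follow basophil activation, was at 11975.6 and 12632.3, and LAMP1, a lysosomal membrane protein, at 3593.1 and 5671.0. The median log2 difference of the 10 measured receptor genes other than KIT, IL1RL1 and ENPP3 was 0.24. Downstream of these receptors, none of 24 measured genes of interleukin 33 and KIT signal transduction was called in either direction, with a median of 0.019. The brightest of them were PTPN11, a phosphatase, at 9015.5 and 9057.5, IRAK1, a kinase, at 6720.6 and 6608.9, and LYN, a kinase of the Src family, at 3949.8 and 4579.8.

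ENPP3 (Entrez 5169), the ectoenzyme known as CD203c and used as a surface marker of basophils and mast cells, was not called. The probe set 222938_x_at was at 689.4 with the empty vector and 975.5 with PML4, a 1.42-fold higher signal. The probe set 232737_s_at was at 130.1 and 134.0, and 219912_s_at stayed below the floor in both cultures, at 25.4 and 34.6. The measured probe sets thus differed in size, and the dimmer one was nearly equal on the arrays. A probe set ending in _x_at can hold probes that match other transcripts. ENPP1, ENPP2, ENPP4, ENPP5 and ENPP6, the other family members with a probe set of their own, were under the floor on both arrays.

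RAB27B (Entrez 5874) encodes a small GTPase that docks secretory granules at the plasma membrane. The probe set 228708_at was at 725.1 with the empty vector and 3127.4 with PML4, a 4.31-fold higher signal with both sides far above the floor. The probe set 207018_s_at was at 46.5 and 114.6, a bound of at least 1.58-fold, and 207017_at stayed below the floor in both cultures, at 29.3 and 33.7. The bright probe set alone therefore carries the call, and the mean over the 2 measured probe sets was 1.39 on the log2 scale.

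The paralog RAB27A differed the other way. It was named after its values were seen. Its brightest probe set was at 5356.3 with the empty vector and 2796.6 with PML4, a 1.92-fold lower signal just under the size of a call, and all 5 of its measured probe sets were lower. Of the 25 measured genes of Rab27 effectors and granule exocytosis, 2 were called higher and none lower. The second was RAB37, another Rab GTPase of mast cell granules, at 95.1 and 395.4, a 4.16-fold higher signal in its 1 measured probe set. The SNARE genes VAMP7, at 11607.6 and 9310.3, and SNAP23, at 8561.8 and 8449.8, were bright and not called, as was RAB11A, at 9468.5 and 10569.1. The median log2 difference of the 24 genes other than RAB27B was 0.022.

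SELPLG (Entrez 6404) encodes PSGL-1, the leukocyte ligand of P-selectin that starts rolling on the vessel wall. The probe set 209879_at was at 271.8 with the empty vector and 1654.1 with PML4, a 6.09-fold higher signal. The other, 209880_s_at, was at 7.5 and 161.4, a bound of at least 2.23-fold. Both probe sets reached the size of a call, but 209880_s_at exceeded the floor with PML4 only, so being measured fixed its direction. Only 209879_at was above the floor on both arrays.

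PSGL-1 binds selectins only after glycosyltransferases and sulfotransferases have modified it. Of 20 genes of this list, 16 were measured, and besides SELPLG there was 1 higher and 1 lower call. CD44, an adhesion receptor that can carry selectin ligands, was at 988.3 and 2086.2, which is 2.11-fold higher, but the mean over its 9 measured probe sets was 0.58 on the log2 scale and not called. PODXL, a sialomucin, was at 210.5 and 81.0, a 2.60-fold lower signal. TPST2, which sulfates tyrosines, was at 3858.0 and 3398.9, and GALNT1, which starts O-linked chains, at 1782.0 and 1959.5. The median log2 difference of the 15 genes other than SELPLG was -0.18.

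HPGD (Entrez 3248) encodes 15-hydroxyprostaglandin dehydrogenase, which inactivates prostaglandins. Its 4 probe sets were all measured and all at least 2-fold higher on the PML4 array. The one standing for the gene, 203914_x_at, was at 102.1 and 379.6, a 3.72-fold higher signal with the control side at 1.41 times the floor. The others were bounds: 211548_s_at was at 34.7 and 333.6, at least 4.61-fold, 203913_s_at at 67.4 and 266.3, at least 3.68-fold, and 211549_s_at at 51.7 and 169.1, at least 2.34-fold. HPGD had the most probe sets past 2-fold of the 10 genes. With the empty vector, all of its probe sets but 203914_x_at lay under the floor, so being measured fixed the direction of those. All 4 end in _x_at or _s_at, and without such probe sets HPGD could not be read.

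ALOX5 (Entrez 240), the 5-lipoxygenase that starts leukotriene synthesis, was the gene of this group called lower. The probe set 204446_s_at was at 677.5 with the empty vector and 214.2 with PML4, a 3.16-fold lower signal with both sides above the floor. The probe set 204445_s_at was at 77.8 and 10.5, a bound of at least 1.07-fold lower. The probe sets 213952_s_at, at 48.1 and 32.7, and 214366_s_at, at 57.9 and 21.2, were under the floor on both arrays. The call thus rests on 1 probe set, and with the mean over the 2 measured probe sets it was -0.88 on the log2 scale and not called.

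Other genes of leukotrienes and prostaglandins did not move in 1 direction. Of 26 genes 16 were measured, and of the 14 other than HPGD and ALOX5, 8 had a higher and 6 a lower value, with a median log2 difference of 0.074. The 1 call among them was TBXAS1, thromboxane synthase, at 201.3 and 100.6, lower by a size at the edge of a call. LTA4H, the leukotriene A4 hydrolase, was at 3291.2 and 2585.8. COTL1, a protein that binds 5-lipoxygenase, was at 4120.2 and 6188.0, and PTGES3 at 23848.1 and 23305.2. ALOX5AP, which presents arachidonic acid to 5-lipoxygenase, and LTC4S, leukotriene C4 synthase, were under the floor on both arrays. HPGDS, the prostaglandin D synthase of mast cells, named after its values were seen, was at 14.9 and 122.8, a bound of at least 1.70-fold higher.

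Of the 9 lists together, 113 measured genes were not among the 10, with a median log2 difference of 0.032, and 5 of them (4.42%) were called higher and 3 (2.65%) lower. The share of all measured genes was 1.23% higher and 3.21% lower. The lists were chosen with earlier results of these data known, so nothing is read from these shares side by side. The count called higher was 10 with a floor at the 25th percentile and 1 with a floor at the 75th. The 5 were FCER1G, RAB37, CD44, IKZF2 and GFI1, and the 3 were HNMT, TBXAS1 and PODXL. IKZF2, a zinc finger factor of the Ikaros family, was at 199.6 and 422.6, and GFI1, a zinc finger repressor, at 91.3 and 260.1. The other probe sets of IKZF2 were under the floor on both arrays, and the control signal of GFI1 was near it. Among 17 measured transcription factors of these lineages none besides IKZF2 and GFI1 was called. GATA2, a factor needed for mast cells and basophils, was at 3538.3 and 4183.1 in its brightest probe set, BHLHE40 at 11992.3 and 13642.7, CEBPB at 9106.5 and 5012.6 and STAT5A at 4303.8 and 4665.3.

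**Figure D3:**
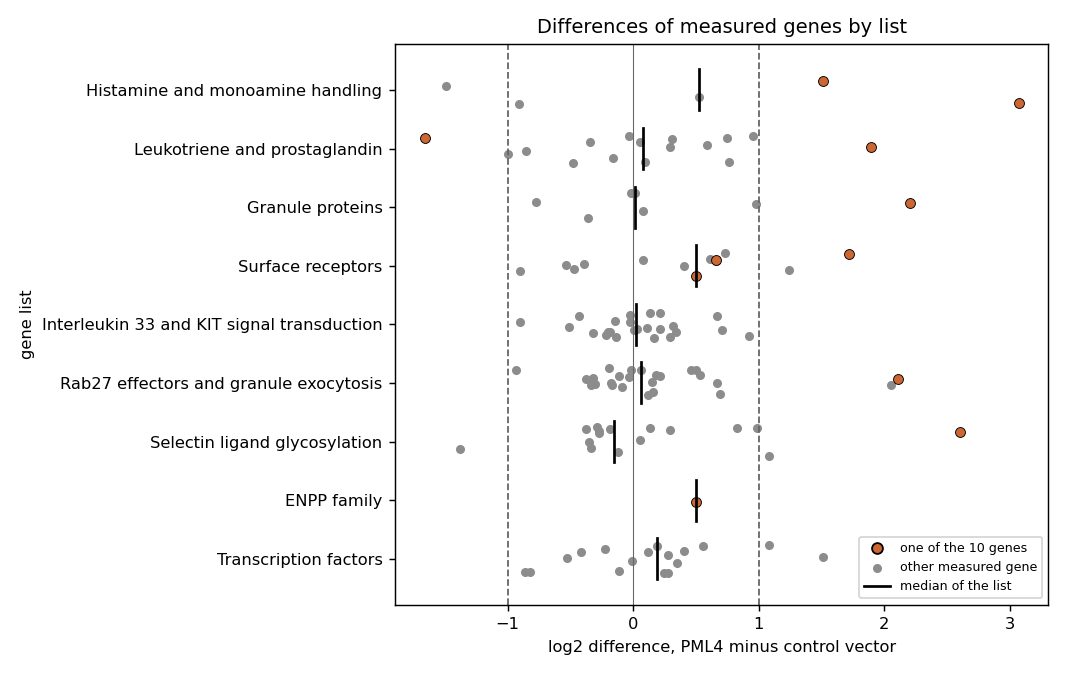
Log2 difference, PML4 minus control vector, of each measured gene in 9 gene lists; orange points are the 10 genes, grey points the others, black bars the list medians and dashed lines 2-fold. The orange points lie toward the ends of their lists, apart from KIT and ENPP3, which follows from their choice by this difference. Medians include the 10 genes and lie between -0.15 and 0.53. The median of the histamine list is 0.53 with them and -0.91 without.

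Other markers of the cell types that these genes are named for were in part measured and in part under the floor. Of 8 mast cell markers with a probe set of their own, FCER1A, TPSAB1, CPA3 and CMA1 were under the floor on both arrays, TPSB2 was at 73.5 and 7.3, and the remaining 3 were KIT, HDC and SLC18A2. Of 6 basophil markers, FCER1A and CLC were under the floor on both, while HDC, ENPP3, GATA2 (3538.3 and 4183.1) and MS4A3 (3418.3 and 2000.3) were above it on both. Of 7 eosinophil markers, PRG3, RNASE2, CLC and IL5RA were under the floor on both, and those above it on both were PRG2, EPX, 1.97-fold higher, and SIGLEC8, an eosinophil and mast cell lectin, 1.66-fold higher at 100.9 and 167.0. None of these was listed at 0, since the lowest signal of a marker's brightest probe set was 1.2, for RNASE2 on the PML4 array. The summed signal over the brightest probe set of each marker was 3868.7 with the empty vector and 6549.3 with PML4 for mast cells, 7816.5 and 7434.9 for basophils, and 947.4 and 3108.8 for eosinophils. Most of the mast cell sum was KIT and most of the eosinophil sum was PRG2. KIT, HDC, SLC18A2, ENPP3 and PRG2 were chosen by this difference, so the sums holding them do not test a direction for any cell type. Outside these genes, the only measured mast cell marker was TPSB2, which was lower on the PML4 array and near the floor on the control array. Of the basophil markers outside them, GATA2 was higher and MS4A3 lower. The eosinophil markers EPX and SIGLEC8 were higher, by less than a call.

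**Figure D4:**
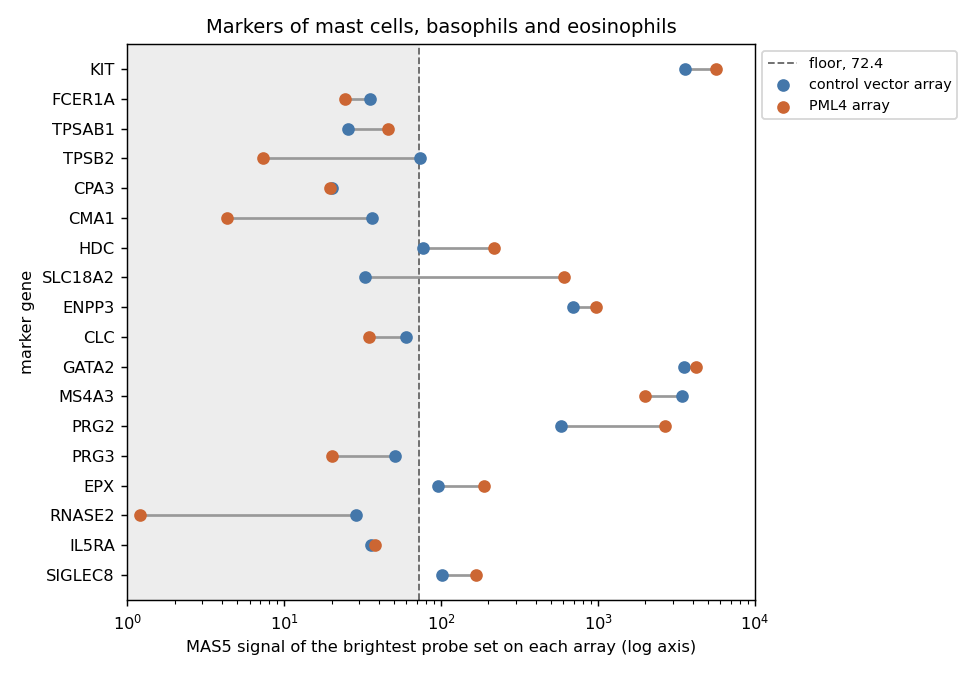
MAS5 signal (log axis) of the brightest probe set of each mast cell, basophil or eosinophil marker gene on the control vector array (blue) and the PML4 array (orange); the dashed line and shading mark the floor of 72.4. FCER1A, TPSAB1, CPA3, CMA1, CLC, PRG3, RNASE2 and IL5RA lie in the shaded area on both arrays.

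Markers of other blood cells also differed between the arrays. Summed over 10 T cell and NK cell markers, signal was 6442.9 with the empty vector and 17116.3 with PML4, most of it PRF1, at 3459.0 and 11617.0. PRF1, CD3D and CD3G were called higher, CD5 was called lower and 5 of the 10 were under the floor on both. The 9 neutrophil markers summed to 883.6 and 413.5, with CSF3R, at 500.3 and 137.3, called lower and 7 under the floor on both. The 9 megakaryocyte markers summed to 2587.1 and 2957.7, with TUBB1 called higher. The 7 monocyte markers, at 3467.9 and 3363.5 and mostly LYZ, and the 6 B cell markers, at 466.2 and 357.2, held no call. The 6 K562 markers summed to 29719.8 and 40718.5, most of it HBE1, with HBZ called higher. The part of these differences in those of the 10 genes was not tested.

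The calls held under some settings and changed under others. Each setting reads the same arrays by which the genes were chosen, so none is a separate check on them. A floor at the 25th percentile, a pseudocount of 32, centring, quantile normalization and loess centring each gave the same 7 genes called higher and ALOX5 called lower. With a floor at the 75th, HDC, IL1RL1 and HPGD were no longer measured, and the calls were PRG2, RAB27B and SELPLG. With the mean over a gene's measured probe sets the same 7 were called higher and ALOX5 was not called. When the _x_at and _s_at probe sets were left out, 4 of the genes could be read, and SLC18A2, IL1RL1, RAB27B and SELPLG were all called higher. At 3-fold, HDC was no longer called, and at 1.5-fold KIT was called higher as well.

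**Figure D5:**
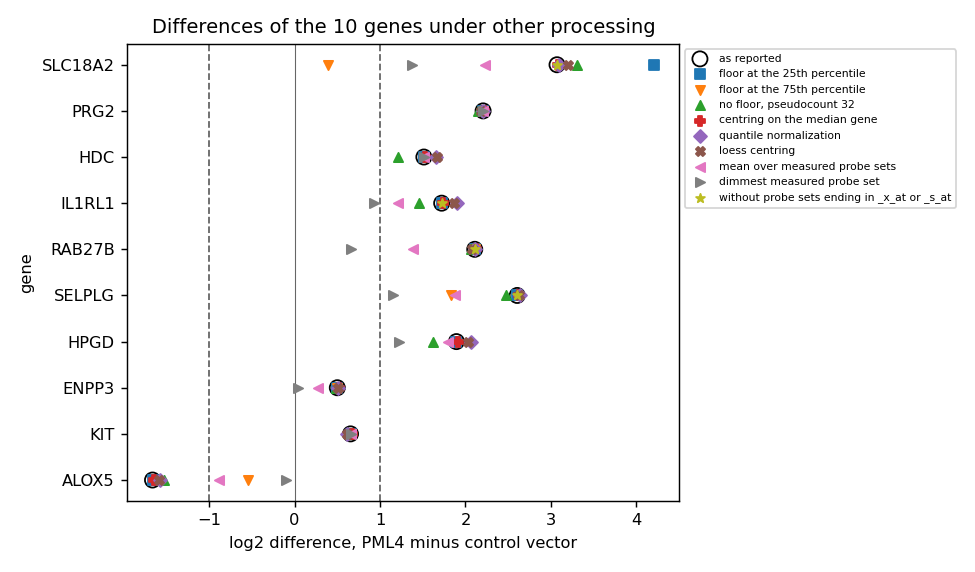
Log2 difference, PML4 minus control vector, of each of the 10 genes as reported (open circle) and under each alternative (coloured marks); dashed lines mark 2-fold. PRG2 and KIT keep within narrow ranges, SLC18A2 runs from 0.39 to 4.21 with the floor, and every mark of ALOX5 lies below 0.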

How the data were processed

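Total RNA of K562 cells, 6 µg per array, was labelled with biotin per the labels and read on 2 Affymetrix arrays, 1 per group. The deposited values are signal intensities; MAS5 is named, without version or settings, per the submitters' processing notes. The mean without the lowest and highest 2% was 500.0 on the control and 500.1 on the PML4 array. GEO's platform annotation named the genes: 41091 human probe sets had 1 gene, 1801 several and 11721 none, and 41037 of the first matched a current Entrez identifier. Genes were named from probe sets with 1 gene. The annotation names no build, so probe sets and genes have no coordinates here; those of the promoter windows are RefSeq's.

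Everything else was computed in Python 3.11.15 with pandas 2.3.3 and statsmodels 0.14.6. The scripts were tested on simulated data with differences placed only in the brighter genes. That test does not cover genes near the floor or the error between real arrays. Floor, gene summary and call size are defined in the report. With 1 array per group there is no test and no p-value. The 10 genes and the lists were chosen with earlier results of these data known. Named are all probe sets of the 10 genes, and from each list the called genes and the 3 brightest; other names are marked, or are marker genes. No likeness between genes was computed, since each has 1 difference. The spread used for the alternatives was the median gap between probe sets of 1 gene, 0.30 on the log2 scale; it holds no error between arrays or cultures. The number of arrays limits the precision.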

Additional observations from a re-analysis of the deposited data

How the results depend on the processing

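No paired analysis was possible because each group has 1 array. Reading each gene from its dimmest measured probe set was an alternative added after seeing the data. The sign of all 10 genes held in every alternative that gave a value. That is no check on the sign, since the genes were chosen by this difference. The dimmest measured probe sets of SLC18A2, SELPLG, HPGD, IL1RL1 and RAB27B exceeded the floor with PML4 only, so being measured fixed their direction. That of ALOX5 exceeded it with the empty vector only. Of all values, 108 of 149 kept within the probe set spread or within 1.5 times the count. With a floor at the 75th percentile there were 3 genes of the 10 higher and 0 lower, a median of 0.66, and differences of 0.39 for SLC18A2, 1.83 for SELPLG and -0.54 for ALOX5; there were 50 higher and 63 lower among all genes, and 1 and 0 among the other list genes. A floor at the 25th gave 667 and 2000 among all genes, 10 and 17 among list genes, and 4.21 for SLC18A2. A pseudocount gave 1.21 for HDC. The mean over probe sets gave 0 lower, a median of 1.45, and 2.22 for SLC18A2, 1.88 for SELPLG, 1.39 for RAB27B, 1.21 for IL1RL1 and -0.88 for ALOX5. Without _x_at and _s_at probe sets 4 were higher and 0 lower, with a median of 2.36. The dimmest probe set gave 1.38 for SLC18A2, 1.16 for SELPLG, 1.22 for HPGD, 0.93 for IL1RL1, 0.66 for RAB27B, 0.043 for ENPP3 and -0.10 for ALOX5. Calls at 1.5-fold numbered 715 higher and 1487 lower among all genes and 20 and 11 among list genes; at 3-fold they numbered 27 and 59, and 1 and 0. For single lists, 54 of 180 counts moved by more than 1.5 times. Signal over background limits SLC18A2, HDC, IL1RL1 and HPGD most, since their control signals lay near or under the floor. The cause of these shifts was not tested, beyond the fewer genes and probe sets that each setting reads.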
